A study of Rattus norvegicus with 9 samples.

Results

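The spliceosome core genes examined here are those whose symbols in the deposited count table begin with Lsm or Prpf and a digit, with Snrp, or with Sf3a or Sf3b and a digit, and which reached at least 1 CPM (counts scaled to library size) in at least 3 libraries. The patterns matched 47 of 30446 genes, and 45 met the level. All 45 reached it in all 9 libraries, so that no member entered through 1 group alone. The lowest members were Lsm11, at 2.72 to 4.12 CPM, and Snrpn, at 3.23 to 4.68 CPM. Below the threshold lay only Snrpd2l, with 8 counts over all libraries together, and Snrpep2, with 2. All 45 members were among the 16627 genes tested.

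Introns are cut from pre-mRNA by the spliceosome, which is assembled on each intron from small nuclear ribonucleoproteins (snRNPs), particles of a short RNA and its proteins. The Sm proteins form a ring on the RNAs of U1, U2, U4 and U5, and a related ring of Lsm proteins sits on U6. A sister Lsm ring with Lsm1 in place of Lsm8 works in the cytoplasm in mRNA decay. SF3a and SF3b are the U2 proteins that hold the branch point, and the Prpf proteins have varied roles, among them in the U4/U6.U5 tri-snRNP, in catalysis and beside U1. Dorsal root ganglia, from which the RNA came, hold the cell bodies of sensory neurons with their satellite glia, Schwann cells, macrophages and vessels.

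Ganglia of male Sprague-Dawley rats were taken on both sides from T12 to L6, and the labels give 30 days for every group. There were 3 groups with 3 libraries each: naive, sham, and spinal cord injury (SCI). No transgene, drug or level of injury is named. Whether the RNA of a library came from a single rat or from several is not stated, so the spread that p-values rest on may be technical. Library totals ran from 16724878 to 32060538 counts, and the member counts behind a single value went down to 54 (Snrpn in sham 2) and 55 (Lsm11 in sham 3).

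The naive libraries stood apart from the sham and SCI libraries across the whole table, and no batch is named in the labels. In every comparison with naive below, a batch shared by those libraries and the effect of an operation cannot be told apart. All 12 sensory neuron markers were present, at a summed 28680 to 42833 CPM per library. Of these 1 was called higher and 2 lower in SCI, and 2 higher and 2 lower in sham. The 8 Schwann cell markers summed to 30016 to 31805 CPM in naive, 17839 to 22220 in sham and 19344 to 23366 in SCI. Of the 8, 6 were called lower and 1 higher in each operated group. The 6 satellite glia markers summed to 4768 to 4829, 7369 to 9800 and 7408 to 8531 CPM in the same order, but only 3 of the 6 were called higher and 1 lower in each operated group, with medians of 0.17 on the log2 scale in SCI and 0.10 in sham. The 7 macrophage markers summed to 279 to 352, 394 to 558 and 478 to 510 CPM, with 4 called higher and 1 lower in each operated group. The 5 fibroblast markers summed to 2556 to 2937, 1367 to 2378 and 1545 to 1950 CPM, with 3 called lower and 0 higher in each operated group. The endothelial markers summed to 72.9 to 81.3, 64.9 to 92.0 and 74.1 to 81.1 CPM. Of these only 2 were tested, with 1 called lower and 0 higher in each operated group. The 7 skeletal muscle markers stood apart in sham, at 117 to 136 CPM against 56.4 to 92.1 in naive and 56.0 to 86.1 in SCI, with 5 of 7 called higher in sham against naive and none called between SCI and sham (median log2 difference -0.79). Both red blood cell markers measured were called lower in sham, where they summed to 104 to 183 CPM against 214 to 309 in naive, and 1 was in SCI, at 139 to 265 CPM. The part of these shifts in the results on the spliceosome genes was not tested, and fewer cells of a type cannot be told apart from less RNA per cell in bulk tissue.

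Against naive ganglia, spliceosome core genes moved in both directions: 7 of 8 Lsm ring genes and 4 of 7 Sm ring genes were higher in SCI, and the large scaffolds Prpf8 and Sf3b1 were lower. In SCI 21 of the 45 members were higher, 8 were lower and 16 did not pass (edgeR quasi-likelihood test, adjusted p under 0.05 over all genes). Over all genes tested 23.9% were higher and 24.6% lower, against 46.7% and 17.8% of the members; in either direction the shares were 48.5% and 64.4%. The median log2 change was 0.18 for the members and 0.01 for all genes tested, and the members ran from -0.75 (Prpf8) to 0.97 (Lsm4). In sham 25 members were higher and 9 lower, where 24.7% and 25.9% of all genes were (50.6% in either direction), with a median log2 change of 0.23 for the members and 0.00 for all genes. All 3 SCI libraries lay above all naive ones in 28 members and below them in 9, where 32.2% and 31.9% of all genes did. For sham these counts were 25 and 10 members, where 27.5% and 29.2% of all genes did. Both comparisons share the naive libraries. Summed over the 45 members the level was 2398 ± 17.6 CPM in naive, 2469 ± 78.9 in sham and 2465 ± 30.6 in SCI (SD, n = 3).

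**Figure D1:**
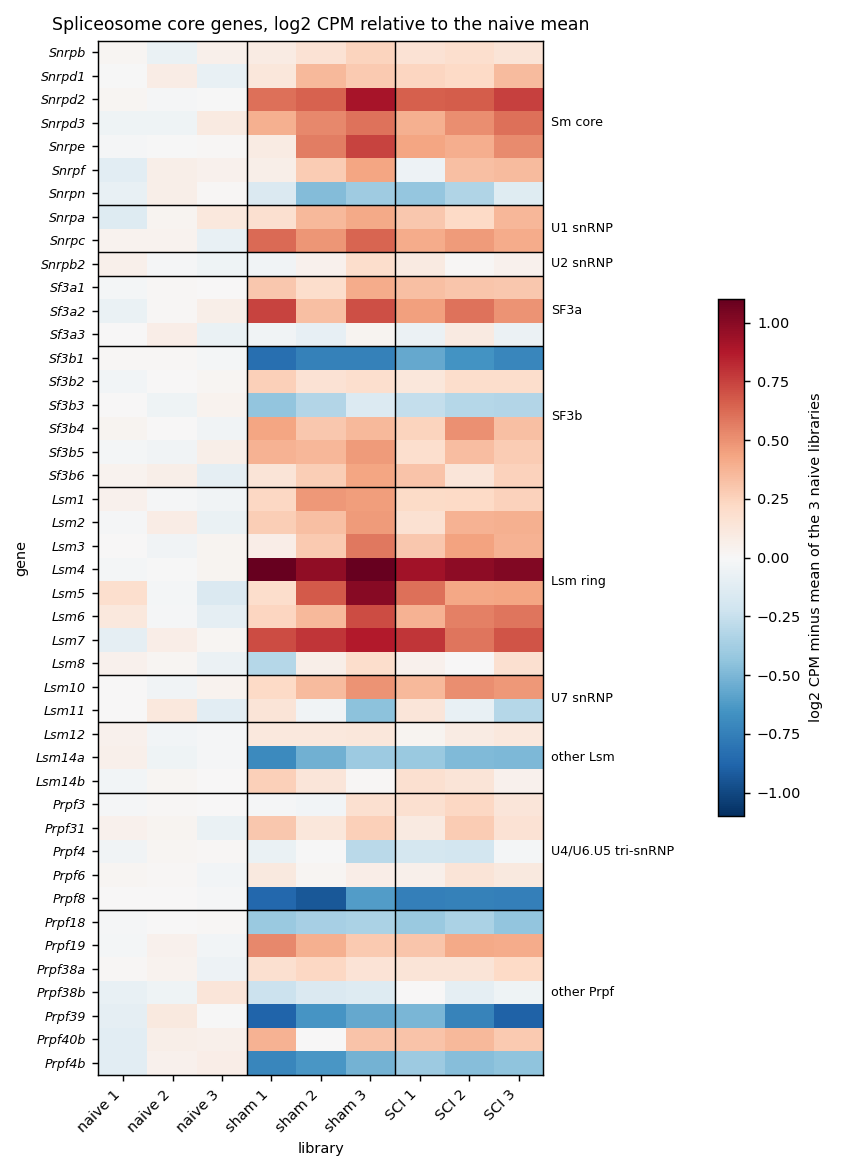
Each row is 1 of 44 spliceosome core genes, grouped by subcomplex, and each column 1 library; colour gives log2 CPM minus the mean of the 3 naive libraries. Sham and SCI columns show the same rows red (Lsm4, Lsm7, Snrpd2) and the same rows blue (Prpf8, Sf3b1, Prpf39), and the first sham library is paler than the third in most Lsm ring and Sm core rows.

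The largest increases belonged to Lsm4, Lsm7 and Snrpd2. Lsm4, a subunit of both Lsm rings with a long glycine- and arginine-rich tail, stood at 47.6, 47.9 and 49.2 CPM in naive libraries 1 to 3, at 103, 94.9 and 106 in sham and at 91.5, 95.2 and 97.8 in SCI. Every operated library lay far above every naive one. The log2 change was 0.97 (SE 0.06, edgeR adjusted p = 3.25e-07) for SCI and 1.07 (SE 0.06, edgeR adjusted p = 1.41e-07) for sham against naive. Lsm7, its partner in both rings, stood at 17.7, 19.9 and 19.1 CPM in naive, 31.0, 32.5 and 34.5 in sham and 32.6, 28.5 and 30.6 in SCI. The groups did not overlap with naive, at a log2 change of 0.69 (SE 0.08, edgeR adjusted p = 1.56e-05) in SCI. Snrpd2, an Sm ring subunit, stood at 64.3, 62.7 and 63.1 CPM in naive, 96.4, 99.1 and 119 in sham and 100.2, 100.5 and 107 in SCI. Its log2 change was 0.69 (SE 0.08, edgeR adjusted p = 1.35e-05) in SCI and 0.73 (SE 0.08, edgeR adjusted p = 7.73e-06) in sham.

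The largest decreases belonged to Prpf8, Prpf39 and Sf3b1. Prpf8, the large scaffold of U5 that cradles the catalytic centre, stood at 258, 259 and 256 CPM in naive, at 142, 135 and 169 in sham and at 153, 154 and 153 in SCI. Its naive and SCI libraries were each within a narrow range and far apart, while sham 3 lay above the other sham libraries. The log2 change was -0.75 (SE 0.08, edgeR adjusted p = 7.88e-06) in SCI and -0.80 (SE 0.08, edgeR adjusted p = 4.01e-06) in sham. Sf3b1, the SF3b scaffold that closes around the branch point, stood at 248, 248 and 242 CPM in naive, 138, 147 and 147 in sham and 166, 156 and 150 in SCI. All operated libraries lay below all naive ones, at a log2 change of -0.64 (SE 0.06, edgeR adjusted p = 5.16e-06) in SCI and -0.77 (SE 0.06, edgeR adjusted p = 1.16e-06) in sham. Prpf39, a protein tied to U1 snRNP, stood at 30.1, 34.8 and 32.3 CPM in naive, 17.6, 20.7 and 21.9 in sham and 22.8, 19.5 and 17.4 in SCI. The log2 change was -0.70 (SE 0.11) in both comparisons, with edgeR adjusted p of 0.000156 in SCI and 0.000140 in sham.

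**Figure D2:**
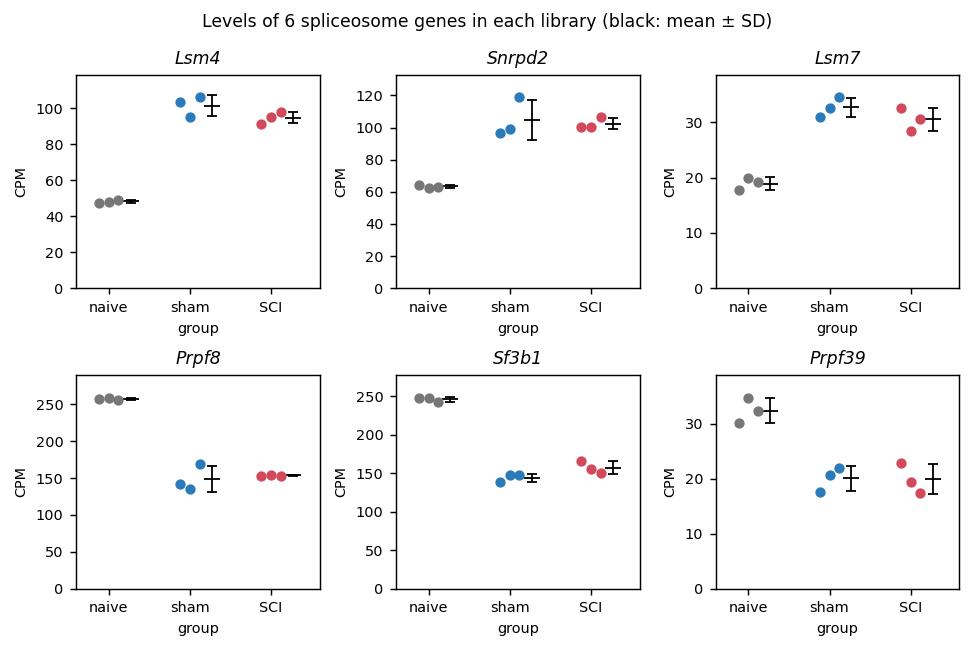
Level in CPM (linear axes from 0) of Lsm4, Snrpd2, Lsm7, Prpf8, Sf3b1 and Prpf39 in each of the 9 libraries by group, with the mean ± SD of 3 in black. In the upper row every sham and SCI point lies above every naive point, and in the lower row every one lies below.

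The upstream sequences of these 6 genes are shown because they had the 3 largest increases and the 3 largest decreases in SCI against naive. Whether they are regulated together was not tested. RefSeq start sites (GRCr8) were matched for 41 of 45 members, and the 250 bases before the start were searched on both strands. The motifs were CCGGAAG for ETS factors, the NRF1 palindrome of 10 bases with any base at the sixth, CCAAT for the CCAAT box, GGGCGG for the GC box, AANATGGCG for YY1 and TATAAA for the TATA box. No motif contains another. The windows are chr16:18794887-18795136 on the minus strand for Lsm4, chr7:9507123-9507372 on the plus strand for Lsm7, chr1:87926159-87926408 on the plus strand for Snrpd2, chr10:60829528-60829777 on the plus strand for Prpf8, chr6:88824990-88825239 on the plus strand for Prpf39 and chr9:64026720-64026969 on the minus strand for Sf3b1. Capitals mark matches to any of these motifs on either strand.
Lsm4: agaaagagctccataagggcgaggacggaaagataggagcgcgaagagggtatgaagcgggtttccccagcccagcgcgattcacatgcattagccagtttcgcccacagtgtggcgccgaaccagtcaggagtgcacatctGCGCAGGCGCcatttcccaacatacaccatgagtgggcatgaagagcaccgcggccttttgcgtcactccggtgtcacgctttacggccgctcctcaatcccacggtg
Lsm7: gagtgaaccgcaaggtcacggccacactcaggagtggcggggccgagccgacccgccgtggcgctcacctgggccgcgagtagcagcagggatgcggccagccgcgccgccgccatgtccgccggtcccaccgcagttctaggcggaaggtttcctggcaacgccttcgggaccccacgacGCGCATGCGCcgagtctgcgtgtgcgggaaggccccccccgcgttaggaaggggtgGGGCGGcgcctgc
Snrpd2: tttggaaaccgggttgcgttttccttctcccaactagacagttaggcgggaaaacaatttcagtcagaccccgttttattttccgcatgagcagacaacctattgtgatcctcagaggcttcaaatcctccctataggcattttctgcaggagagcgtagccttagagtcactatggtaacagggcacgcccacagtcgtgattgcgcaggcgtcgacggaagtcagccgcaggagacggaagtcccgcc
Prpf8: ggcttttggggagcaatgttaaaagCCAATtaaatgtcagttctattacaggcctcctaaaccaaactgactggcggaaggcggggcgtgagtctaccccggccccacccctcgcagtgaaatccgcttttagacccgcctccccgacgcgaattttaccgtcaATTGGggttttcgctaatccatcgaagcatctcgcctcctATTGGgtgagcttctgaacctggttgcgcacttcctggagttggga
Prpf39: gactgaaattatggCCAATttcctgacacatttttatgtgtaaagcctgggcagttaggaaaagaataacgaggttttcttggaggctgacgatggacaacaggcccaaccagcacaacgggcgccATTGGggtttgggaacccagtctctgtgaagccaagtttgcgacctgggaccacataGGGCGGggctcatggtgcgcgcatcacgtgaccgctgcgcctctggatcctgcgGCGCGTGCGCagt
Sf3b1: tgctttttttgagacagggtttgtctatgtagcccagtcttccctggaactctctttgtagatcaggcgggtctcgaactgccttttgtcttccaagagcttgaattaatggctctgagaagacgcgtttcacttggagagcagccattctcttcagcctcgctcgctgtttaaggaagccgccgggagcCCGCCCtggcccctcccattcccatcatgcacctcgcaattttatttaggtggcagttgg
The NRF1 letters stood once each in the windows of Lsm4, Lsm7 and Prpf39, and the window of Prpf8 held CCAAT letters 3 times. The Snrpd2 window held none of the motifs searched.

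Across the 41 windows the ETS letters stood in 11 (26.8%), against 9.01% of 21851 windows of protein-coding genes, and the NRF1 letters in 8 (19.5%), against 5.07%. Those windows include genes not expressed in ganglia, and the members were not set against expressed genes alone. The ETS and NRF1 motifs, common in promoters of genes active in every cell type, occurred in the windows of rising, falling and uncalled members. ETS letters stood in 4 of 19 members higher in SCI, 1 of 6 lower and 6 of 16 not called, and NRF1 letters in 3, 1 and 4. The CCAAT letters stood in 36.6% of member windows and 35.0% of all, and the GC box in 43.9% and 38.9%. The TATA letters, at 12.1% of all windows, and the YY1 letters, at 1.56%, stood in no member window, which says only that these letters are not in these 250 bases. The median GC content was 57.2% in windows of higher members, 52.8% in those of lower members and 54.0% over all.

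In the Sm ring, 4 of 7 measured members were higher in SCI (Snrpd1, Snrpd2, Snrpd3 and Snrpe) and 5 in sham, and none was lower. Over all genes 23.9% were higher in SCI and 24.7% in sham. Summed over these 7 genes, naive had 251 ± 3.52 CPM, sham 342 ± 33.2 and SCI 338 ± 13.8 (SD, n = 3). The sum holds both Snrpb and Snrpn and lacks Snrpg, so it is not that of a whole ring. Snrpd3 stood at 47.9, 48.0 and 53.2 CPM in naive, 65.2, 71.8 and 75.0 in sham and 65.2, 70.8 and 75.4 in SCI, with no overlap with naive (log2 change 0.50, SE 0.08, edgeR adjusted p = 0.000162 in SCI). Snrpe showed the same direction with a wide sham group, at 33.7, 46.9 and 53.1 CPM beside 31.5 to 32.0 in naive and 42.0 to 45.5 in SCI. Snrpf, at 12.7 to 14.4 CPM in naive, 14.3 to 18.5 in sham and 13.2 to 17.5 in SCI, did not pass in either comparison.

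Snrpb and Snrpn encode the paralogous proteins SmB and SmN, and SmN is known to take the place of SmB in brain neurons. Snrpb stood at 52.4, 49.1 and 53.8 CPM in naive, 55.0, 57.6 and 61.4 in sham and 57.6, 58.8 and 57.0 in SCI. Its log2 change of 0.16 (SE 0.06) was the same in both comparisons, and it was called in sham (edgeR adjusted p = 0.0482) but not in SCI (edgeR adjusted p = 0.0545). Leaving out any library but sham 1 ended the sham call (edgeR adjusted p from 0.0607 to 0.171), and leaving out sham 1 or sham 3 brought the SCI value past the threshold (0.0402 and 0.0212). Snrpn had a low level in the deposited counts. It stood at 4.23, 4.69 and 4.53 CPM in naive, 4.00, 3.21 and 3.42 in sham and 3.34, 3.56 and 4.09 in SCI. All naive libraries lay above all others, and the log2 changes of -0.30 (SE 0.14, edgeR adjusted p = 0.0871) in SCI and -0.33 (SE 0.14, edgeR adjusted p = 0.0675) in sham did not pass, though sham did without sham 1 (-0.44, edgeR adjusted p = 0.0295). The ratio of Snrpn to Snrpb counts within a library averaged 0.0869 ± 0.00771 for naive, 0.0615 ± 0.00987 for sham and 0.0634 ± 0.00737 for SCI (SD, n = 3; exact permutation p = 0.1 for each against naive, the smallest that 3 against 3 allow, and 0.6 for SCI against sham). Snurf, which shares its transcript with Snrpn and overlaps it, had its own row, at 1.43 ± 0.451 CPM in naive, 2.68 ± 0.729 in sham and 2.62 ± 0.182 in SCI (SD, n = 3), and passed as higher in SCI at 0.86 on the log2 scale (SE 0.24, edgeR adjusted p = 0.00981). How the authors' counting divided reads between these overlapping genes is not given in the sources used here, so the direction of Snrpn is uncertain.

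Of the U1 proteins in the set, both were higher in SCI and in sham, where 23.9% and 24.7% of all genes were. Snrpc, which steadies the pairing of U1 with the 5′ splice site, stood at 25.7, 25.8 and 23.7 CPM in naive, 38.6, 35.1 and 39.1 in sham and 33.2, 34.6 and 33.2 in SCI. The 3 groups did not overlap, with SCI between naive and sham. Snrpa, which binds a loop of U1 RNA, had log2 changes of 0.29 (SE 0.10, edgeR adjusted p = 0.0273) in SCI and 0.31 (SE 0.10, edgeR adjusted p = 0.0202) in sham. Snrpb2, the U2 protein in the set, stood at 31.0 ± 1.16 CPM in naive, 32.5 ± 2.65 in sham and 32.2 ± 0.942 in SCI (SD, n = 3) and did not pass.

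SF3a and SF3b together make U2 able to bind the branch point. In SCI 2 of 3 SF3a members were higher and none lower, and 3 of 6 SF3b members were higher and 2 lower. Over all genes 23.9% were higher and 24.6% lower in SCI, and 24.7% and 25.9% in sham, so a mix of directions is not particular to these subunits. In SF3a, Sf3a1 and Sf3a2 were higher, at log2 changes of 0.31 (SE 0.06, edgeR adjusted p = 0.00133) and 0.51 (SE 0.10, edgeR adjusted p = 0.000789) in SCI, while Sf3a3 stood at 43.9 ± 2.25 CPM in naive and 43.5 ± 2.93 in SCI (SD, n = 3). Sf3a2 stood at 24.5, 26.1 and 26.9 CPM in naive, 43.3, 32.5 and 42.3 in sham and 35.3, 39.2 and 36.4 in SCI, so that the operated libraries all lay above naive. In SF3b the scaffolds Sf3b1 and Sf3b3 were lower, and Sf3b2, Sf3b4 and Sf3b5 were higher in both comparisons. Sf3b3, which forms a propeller-shaped platform for Sf3b1, stood at 61.3, 59.1 and 62.7 CPM in naive, 45.04, 48.9 and 54.9 in sham and 50.7, 48.9 and 48.8 in SCI. Both operated groups lay below naive, at a log2 change of -0.30 (SE 0.07, edgeR adjusted p = 0.00395) in SCI. Sf3b4, an RNA-binding subunit, stood at 38.3, 37.8 and 36.7 CPM in naive, 50.7, 46.2 and 48.2 in sham and 44.7, 53.3 and 47.2 in SCI. It was higher in SCI at a log2 change of 0.36 (SE 0.07, edgeR adjusted p = 0.00130). Sf3b6, which touches the branch point adenosine, had a log2 change of 0.24 (SE 0.10, edgeR adjusted p = 0.0545) in SCI and did not pass, and was called higher in sham at 0.28 (SE 0.10, edgeR adjusted p = 0.0256).

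Within the same particle, the count of Sf3b1 for each count of Sf3b2 was 1.63, 1.59 and 1.54 in naive, 0.746, 0.852 and 0.835 in sham and 0.981, 0.878 and 0.845 in SCI. All operated libraries lay below all naive ones (exact permutation p = 0.1 for each against naive, 0.2 for SCI against sham). Such a ratio needs no scaling between libraries but is not corrected for gene length. The pairs of genes were chosen with their levels known, so these p-values describe and support nothing.

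Of the 8 genes of the Lsm rings, 7 were higher in SCI and 7 in sham, and none was lower. Over all genes 23.9% were higher in SCI and 24.7% in sham. The 8 include Lsm1 and Lsm8, which take each other's place, so that no single ring holds all 8. Their median log2 change was 0.43 in SCI and 0.42 in sham. Summed over these genes of both rings, the level was 151 ± 1.84 CPM in naive, 242 ± 20.4 in sham and 230 ± 5.25 in SCI (SD, n = 3). Besides Lsm4 and Lsm7, the members Lsm5 and Lsm6 had log2 changes of 0.49 (SE 0.16, edgeR adjusted p = 0.0232) and 0.51 (SE 0.12, edgeR adjusted p = 0.00360) in SCI. Lsm2 and Lsm3 had log2 changes of 0.31 (SE 0.10, edgeR adjusted p = 0.0169) and 0.37 (SE 0.11, edgeR adjusted p = 0.0106).

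The exception was Lsm8, the subunit that keeps the ring on U6 in the nucleus. Lsm8 stood at 15.4, 15.1 and 14.2 CPM in naive, 11.9, 15.6 and 17.01 in sham and 15.4, 14.9 and 16.8 in SCI. The groups overlapped, and the log2 changes of 0.08 (SE 0.11, edgeR adjusted p = 0.607) in SCI and -0.01 (SE 0.12, edgeR adjusted p = 0.932) in sham did not pass. The sign of the sham value turned without sham 1 (0.13), so no direction is given for it. Lsm1, which takes the place of Lsm8 in the cytoplasmic decay ring, stood at 18.5, 17.7 and 17.3 CPM in naive, 20.9, 24.9 and 24.6 in sham and 20.6, 20.8 and 21.3 in SCI. Its log2 change was 0.23 (SE 0.08, edgeR adjusted p = 0.0326) in SCI and 0.39 (SE 0.08, edgeR adjusted p = 0.00137) in sham. The SCI call ended without naive 2, naive 3, SCI 1, SCI 2 or SCI 3 (edgeR adjusted p from 0.0615 to 0.115).

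The ratio of Lsm1 to Lsm8 counts within a library was 1.202, 1.175 and 1.222 in naive, 1.75, 1.60 and 1.44 in sham and 1.34, 1.39 and 1.27 in SCI. The 3 groups did not overlap, with SCI between naive and sham. Each of the 3 comparisons had an exact 2-sided permutation p of 0.1, the smallest that 3 libraries against 3 allow, and 0.136 after adjustment over the 15 tests of 5 ratios. The ratio was highest in sham 1, where Lsm8 was lowest.

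**Figure D3:**
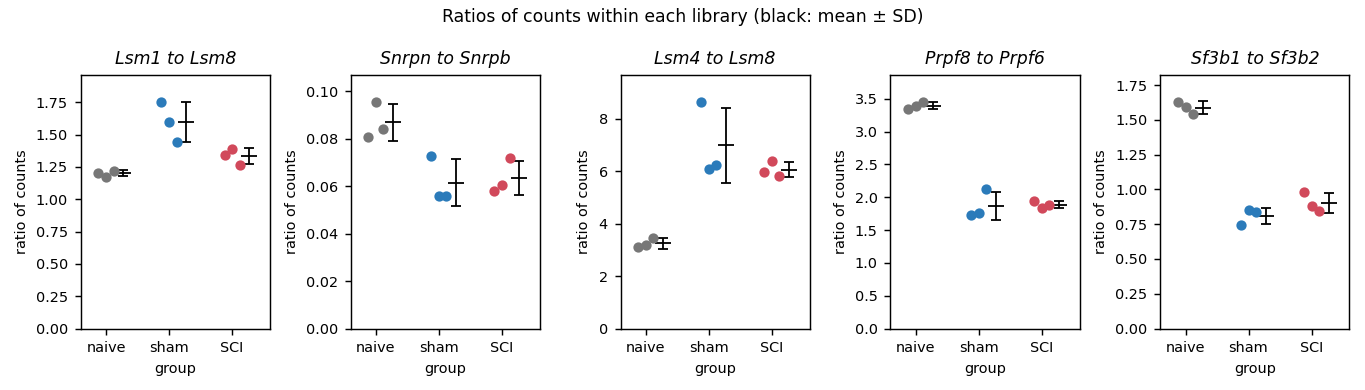
Ratio of the counts of a pair of genes within each library (linear axes from 0) for Lsm1 to Lsm8, Snrpn to Snrpb, Lsm4 to Lsm8, Prpf8 to Prpf6 and Sf3b1 to Sf3b2, with the mean ± SD of 3 in black. Naive points lie apart from all others in every panel, and in the Lsm1 to Lsm8 panel the SCI points (1.27 to 1.39) also lie below the sham points (1.44 to 1.75).

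The Lsm proteins outside the ring moved less uniformly. Lsm10, of the U7 snRNP that trims histone mRNAs, was higher in sham and in SCI, where the log2 change was 0.45 (SE 0.11, edgeR adjusted p = 0.00440). Its partner Lsm11 stood at 3.73 ± 0.296 CPM in naive, 3.49 ± 0.704 in sham and 3.53 ± 0.540 in SCI (SD, n = 3) and did not pass. Lsm14a, a protein of cytoplasmic RNA granules, stood at 83.8, 77.99 and 80.1 CPM in naive, 49.6, 55.9 and 61.2 in sham and 60.7, 57.6 and 57.2 in SCI. All operated libraries lay below naive, at a log2 change of -0.46 (SE 0.07, edgeR adjusted p = 0.000250) in SCI. Its paralogue Lsm14b had a log2 change of 0.12 (SE 0.07, edgeR adjusted p = 0.166) in SCI and, like Lsm12, did not pass in either comparison.

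In the U4/U6.U5 tri-snRNP, Prpf8 was the only one of 5 members called in SCI. This is 20%, where 48.5% of all genes were called in either direction and 24.6% were lower. Prpf6, which bridges U5 and U4/U6, stood at 75.9 ± 1.54 CPM in naive, 79.5 ± 2.46 in sham and 81.5 ± 2.603 in SCI (SD, n = 3), and Prpf3, Prpf4 and Prpf31, all bound to U4/U6, had log2 changes of 0.18, -0.14 and 0.18 in SCI that did not pass. Prpf31 was called higher in sham (log2 change 0.23, SE 0.07, edgeR adjusted p = 0.0162). The count of Prpf8 for each count of Prpf6 was 3.34, 3.39 and 3.45 in naive, 1.73, 1.75 and 2.12 in sham and 1.95, 1.84 and 1.88 in SCI. All operated libraries lay below all naive ones (exact permutation p = 0.1 for each).

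Of the 8 other Prpf genes 2 were higher and 4 lower in SCI, where 23.9% and 24.6% of all genes were, and 3 were higher and 5 lower in sham, where 24.7% and 25.9% were. The 2 of 8 higher in SCI are about the share of all genes. Prpf19, the ubiquitin ligase of the activated spliceosome, stood at 240, 251 and 238 CPM in naive, 351, 319 and 297 in sham and 301, 324 and 322 in SCI. The operated groups lay above naive, at a log2 change of 0.38 (SE 0.07, edgeR adjusted p = 0.000892) in SCI. Prpf18, which acts in the second catalytic step, stood at 78.9, 79.8 and 80.6 CPM in naive, 60.03, 61.8 and 62.8 in sham and 59.97, 62.5 and 59.2 in SCI, a fall of like size in both groups (log2 change -0.40, SE 0.06, edgeR adjusted p = 8.42e-05 in SCI).

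Prpf40b, a protein tied to U1, had a log2 change of 0.32 (SE 0.09, edgeR adjusted p = 0.00989) in SCI and of 0.24 (SE 0.09, edgeR adjusted p = 0.0346) in sham, where sham 2, at 47.8 CPM, lay among the naive libraries. Prpf4b, a kinase that phosphorylates tri-snRNP proteins, stood at 63.1, 70.9 and 71.9 CPM in naive, 41.7, 44.0 and 47.7 in sham and 51.8, 49.5 and 50.5 in SCI. It was lower in SCI (-0.44 on the log2 scale, SE 0.07, edgeR adjusted p = 0.000243) and in sham (-0.63, SE 0.07, edgeR adjusted p = 1.33e-05), with the SCI libraries between the others. Of the related Prpf38a and Prpf38b, Prpf38a was called higher and Prpf38b lower in sham, and neither passed in SCI.

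**Figure D4:**
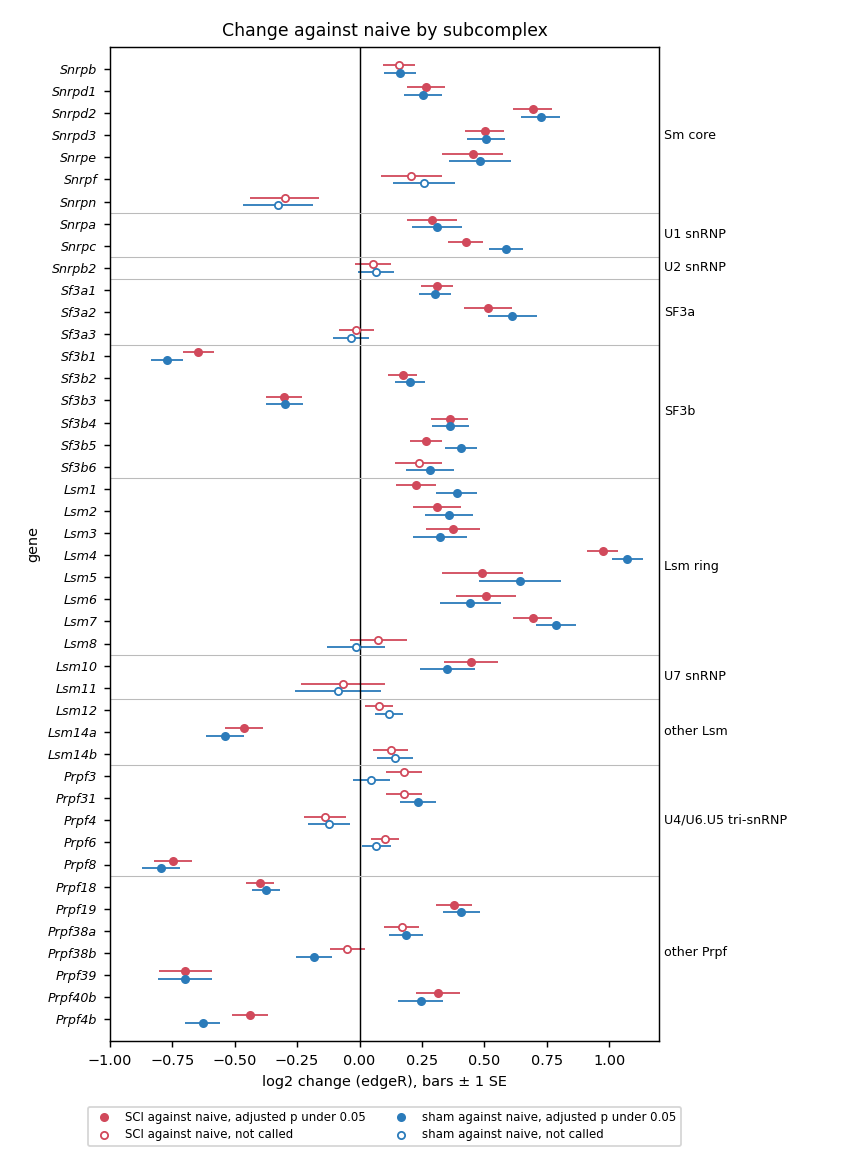
Log2 change from edgeR with ± 1 SE for each of 44 genes, SCI against naive in red and sham against naive in blue; filled points have an adjusted p under 0.05. Red and blue points lie close together for most genes, 7 of 8 Lsm ring genes lie to the right in both colours, and Sf3b1, Prpf8, Prpf39, Prpf4b and Lsm14a lie to the left.

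Between SCI and sham, the comparison that asks what cord injury adds to the operation, no spliceosome core gene passed. The edgeR quasi-likelihood test called 0 of 45 members and 0 of all genes tested (0%), and DESeq2 and limma-voom called 0 of the members too. At an unadjusted p under 0.05 there were 3 members, Prpf4b, Snrpc and Sf3b5, where 3.16% of all genes were. The SCI libraries lay above all sham libraries in 3 members (Prpf4b, Sf3b1 and Prpf38b), where 3.3% of all genes did, and below them in 2 (Snrpc and Sf3b5), where 3.11% did. The median log2 change was -0.01 over the members and 0.00 over all genes.

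The 5 members with the smallest p were Prpf4b, with a log2 change of 0.19 (SE 0.07), Snrpc with -0.16 (SE 0.07), Sf3b5, a small SF3b subunit, with -0.14 (SE 0.06), Sf3b1 with 0.13 (SE 0.06) and Lsm1 with -0.16 (SE 0.08), all at an edgeR adjusted p of 0.9999. In all 5 the SCI mean lay between those of naive and sham. These 5 were picked by p and none was called, and how often other genes had this order was not counted. Sf3b5 stood at 46.6, 45.8 and 49.2 CPM in naive, 61.4, 60.9 and 65.1 in sham and 53.7, 59.5 and 57.2 in SCI. For 44 of the 45 members the 95% interval of the SCI minus sham difference lay within 0.5 on the log2 scale in either direction, and the widest lower bound was -0.50, for Lsm5. For Lsm4 the interval ran from -0.23 to 0.03, for Prpf8 from -0.12 to 0.22 and for Prpf39 from -0.24 to 0.24.

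The sham libraries varied most among themselves. The median SD of log2 CPM within a group was 0.12 over the members in sham, against 0.05 in naive and 0.07 in SCI, and over all genes tested it was 0.17, 0.08 and 0.09. Sham 1 was the lowest sham library in 26 of 45 members and sham 3 the highest in 30, while over all genes these shares were 37.3% and 39.97%. In the Lsm ring sham 1 was lowest and sham 3 highest in 7 of 8 members each, and in the Sm ring in 6 and 5 of 7. The widest member was Lsm5, at 12.2, 16.96 and 21.3 CPM in sham, so that its sham 1 level lay beside naive 1, at 12.1 CPM. Sham 1 was the deepest and sham 2 the shallowest sham library, and sham 1 had the highest sum of sensory neuron markers, at 42833 CPM; the part of either in this order was not tested. Without sham 1 the members called in sham against naive numbered 33, and without sham 3 they numbered 29. The shares of all genes called in these 2 fits are not given here.

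Outside the core set, 6 lists of other splicing genes were compared in the same fit. Over their 108 tested genes 29 were higher and 31 lower in SCI than in naive, with a median log2 change of 0.01, and in sham 32 were higher and 31 lower. The SCI shares of 26.9% and 28.7% were near the 23.9% and 24.6% of all genes tested, and these shares of all genes are the measure for each list below. None was called between SCI and sham, where 5 had an unadjusted p under 0.05. Other snRNP proteins came closest to the core genes, with 8 of 20 higher (40%) and 2 lower (10%) in SCI and a median of 0.17. Zmat5, of the minor spliceosome, was higher at a log2 change of 1.02 (SE 0.11, edgeR adjusted p = 1.01e-05), Snrnp25 at 0.74 and Ddx23, a helicase of the tri-snRNP, at 0.37. Snrnp200, the large U5 helicase, fell by 0.70 on the log2 scale (SE 0.06, edgeR adjusted p = 1.98e-06), and U2surp by 0.61.

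The Prpf19 complex and factors of the catalytic steps had 9 of 30 higher (30%) and 8 lower (26.7%) in SCI, near the shares of all genes. Among them Cwc15, Ppil1 and Ctnnbl1 had log2 changes of 0.60, 0.74 and 0.37, and the helicases Aqr and Dhx15 and the scaffold Crnkl1 had -0.56, -0.45 and -0.34 (each edgeR adjusted p under 0.05). Crnkl1 has a second identifier in the table, which did not pass. Genes of splice site recognition had 8 of 20 higher and 8 lower (40% each, against 23.9% and 24.6% of all genes), with U2af1l4, Rbm17 and Ddx39b at 0.50, 0.36 and 0.38 and Rbm25 and Luc7l3 at -0.92 and -0.47.

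The SR proteins, which bind exonic enhancers and guide splice site choice, had none of 13 members higher and 5 lower (38.5%) in SCI, where 23.9% and 24.6% of all genes were, and none higher and 6 lower in sham. Tra2a fell by 0.49 on the log2 scale (SE 0.06, edgeR adjusted p = 2.87e-05), Srsf11 by 0.34 and Srsf6 by 0.24. Of 17 genes of snRNP assembly 3 were higher (17.6%) and 4 lower (23.5%) in SCI, no more than the shares of all genes. The small SMN complex subunits Gemin7, Gemin6 and Gemin8 had log2 changes of 0.43, 0.47 and 0.35, and Ddx20, Tgs1 and Gemin5 had -0.49, -0.38 and -0.21. The last list held 8 genes, partners of the cytoplasmic Lsm ring and other genes of mRNA decay. In SCI 1 was higher (12.5%), the scavenger decapping enzyme Dcps (0.35). Another 4 were lower (50%), among them the helicase Ddx6 (-0.66), Dcp1a (-0.47) and the decapping enzyme Dcp2 (-1.12, SE 0.29). Dcp2 stood low, at 2.93, 2.80 and 1.51 CPM in naive, 1.29, 1.13 and 0.64 in sham and 1.27, 1.14 and 0.86 in SCI.

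**Figure D5:**
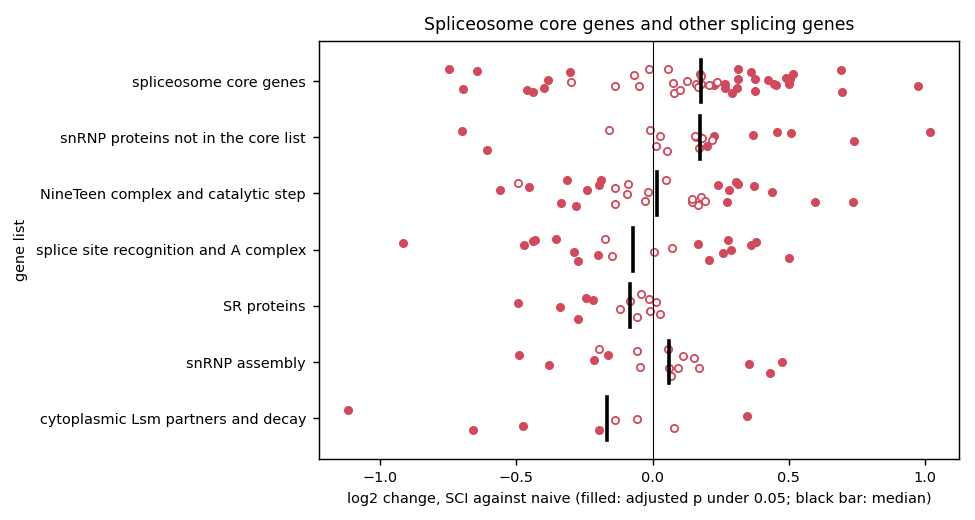
Log2 change of SCI against naive for each of the 45 spliceosome core genes and for the genes of 6 other splicing lists (vertical scatter is only for legibility); filled points have an adjusted p under 0.05 and black bars are medians. Every list but the SR proteins has filled points on both sides of 0. The medians run from -0.17 for the list of Lsm partners and decay to 0.18 for the core genes.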

How the data were processed

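For every gene the authors deposited a raw read count. The submitters' processing notes name Trimmomatic, TopHat2, HTSeq, FastQC and DESeq2, without versions. Build and annotation: not given in the sources used here. Per the labels' protocols, libraries were made with a TruSeq RNA kit (V2) that does not mark strand. By RefSeq gene positions (GRCr8, used for neighbours only), 11 of 45 members overlap another gene of the table (among them Snrpd3, Snrpf, Snrpn, Sf3a1, Sf3a2, Sf3b2, Sf3b6, Lsm1, Prpf39 and Prpf40b), and reads of such pairs may not be told apart.

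Groups came from the sample titles. All 9 libraries entered 1 fit of edgeR's quasi-likelihood test (version 4.0.16, R 4.3.3) with TMM scaling, filterByExpr on the groups, 6 residual degrees of freedom and adjustment by Benjamini and Hochberg over 16627 genes, called at 0.05. CPM use TMM-scaled totals, except in the membership rule, which uses plain totals. Ratios were tested on the log2 scale by exact permutation. The members and lists were chosen with earlier results of these data known. Per-library values are given for up to 8 members called higher and 8 called lower with the smallest p in SCI against naive, the 5 smallest p in SCI against sham, and Snrpb, Snrpn, Lsm1, Lsm8, Sf3b1 and Prpf8; those of Snrpe, Snrpf, Lsm5 and other members, and of Snurf, were added after their values were seen, as were the 5 ratios. Of each other list up to 3 called genes per direction are named. Some genes that these rules take are counted but not reported here by name. Snrpg and Snrpa1 were not analysed here, nor was protein length, since no protein table was used. The test was checked on simulated counts. Other settings tried were upper-quartile and RLE scaling, a strict filter (at least 1 CPM in all 9 libraries) or none, DESeq2 (version 1.42.0), limma-voom (limma version 3.58.1), a fit restricted to the compared groups, a robust spread, a block for the replicate number, omission of each library, an adjusted p under 0.1, a fold of at least 1.5 and, chosen after seeing the data, plain library totals.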

Additional observations from a re-analysis of the deposited data

How the results depend on the processing

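The counts of members called against naive stayed within 1.5 times the reported 29 in SCI and 34 in sham under every alternative but the fold limit. With a fold of at least 1.5 besides an adjusted p under 0.05, 6 members (3 higher, 3 lower) remained in SCI and 10 (6 higher, 4 lower) in sham, by construction. The share of all genes that passed this limit is not given here, so these counts cannot be read as many or few. Leaving out 1 library at a time gave 24 to 34 members in SCI and 27 to 33 in sham, and 0 to 0 between SCI and sham. The shares of all genes called in these fits, and with the replicate block below, are not given here. Such shares move with the setting. Without a filter 28 members were called in SCI and 31 in sham, where 33.7% and 35.1% of all genes were, against 48.5% and 50.6% in the reported fit. The count between SCI and sham was 0 under every alternative run. With the replicate block, 28 members were called in SCI, 31 in sham and 0 between SCI and sham. The labels do not say what a replicate number shares, and deviations of same-numbered libraries correlated at -0.095 to 0.124, so the numbers were not taken to pair the libraries. Scaling moved the median of all genes by less than 0.1 on the log2 scale.

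For Lsm8, sham against naive (-0.01) turned to 0.0021 with upper-quartile scaling, and ran from -0.125 to 0.126 with 1 library left out. For SCI against sham, Snrpb (-0.00) turned to 0.013 with plain totals. With 1 library left out it ran from -0.045 to 0.036, Lsm8 (0.09) from -0.060 to 0.204, Snrpn (0.03) from -0.059 to 0.130 and Prpf8 (0.05) from -0.014 to 0.146. None of these was called. Of the members that the naming rule took, alternatives moved Snrpb in both comparisons, Snrpn in sham and Lsm1 in SCI across the threshold. Others also lay near it (in SCI Sf3b6, Prpf31, Prpf38a and Prpf3 at edgeR adjusted p from 0.0545 to 0.0583, in sham Prpf38b at 0.0463), and the alternatives were tabulated for them only within the counts, such as 34 members in SCI with upper-quartile scaling. Apart from these and Lsm8, the members with values for every library under the naming rule kept their direction and side of the threshold against naive under all alternatives run on them. Low counts limit Lsm11 and Snrpn most.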

Other observations

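The minor spliceosome removes a rare class of introns and has its own U11/U12 proteins. Of 7 such genes in the splicing lists, grouped after their values were seen, 4 were higher in SCI than in naive (Zmat5, Snrnp25, Snrnp35 and Zcrb1), the same number in sham, and none lower. Their median log2 change was 0.23 in SCI, where 23.9% of all genes were higher, and they ran from -0.16 (Rnpc3) to 1.02 (Zmat5). Snrnp48 and Pdcd7, at 0.05 and -0.01, did not pass. None was called between SCI and sham, where they ran from -0.08 to 0.11.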
